A study of Homo sapiens with 16 samples.

Results

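Mitochondrial ribosomal protein genes were the rows of 16 RNA-seq count tables whose symbol begins with MRPL or MRPS followed directly by a digit. There were 78 such rows among 23228 gene rows. Of these, 76 are counted as protein subunits by name, 47 with an MRPL name and 29 with an MRPS name, and MRPL42P5 and MRPL45P2 are pseudogenes. The 76 include MRPS36, which is now assigned to another complex. All 78 passed the filter on low counts, which kept 13948 genes for testing.

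The cells were MDA-MB231, a human breast cancer line without hormone receptors, grown in DMEM with 10% FBS. At 24 h and at 8 h the groups were the combination (1 µM sorafenib for 12 h, then MMS with its time counted from the MMS), MMS alone, 1 µM sorafenib alone, and the vehicle DMSO, with 2 libraries each. MMS, methyl methanesulfonate, alkylates DNA, and sorafenib inhibits several kinases. The MMS dose is written as 40 µM in the sample labels and as 40 µg/mL in the series text. The labels do not say whether sorafenib stayed on the cells during MMS. Cells of the combination thus differ from those of the sorafenib groups in the timing of sorafenib as well as in MMS. The 2 libraries of a group came from what the series text calls independent experiments, all on 1 cell line, so p-values measure the spread between those experiments only.

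Gene reads per library ranged between 16774156 and 26448212 (median 20348720). Levels are given as CPM, the count of a gene scaled by the library's total of gene reads. They are shares of a library, and in bulk RNA fewer cells of a type and less RNA per cell cannot be told apart. The mesenchymal markers VIM, CD44, AXL and MSN had at least 608 CPM in every library, ESR1 was at most 0.224 CPM and PGR at most 0.674 CPM. Among markers of other cell types, INS had 0 counts in every library, VWF reached at most 0.201 CPM and PECAM1 6.81 CPM, while the fibroblast collagen COL1A1 was at 5.34 to 18.6 CPM. The epithelial markers CDH1 and ERBB3 reached 9.34 and 12.9 CPM, while the epithelial keratin KRT18 was at 148 to 268 CPM. Libraries with the same replicate number deviated together from their group means, and a fit with the replicate as a block is given where it changed a call.

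The mitochondrial ribosome translates the few messenger RNAs that the mitochondrial genome encodes, all for subunits of the respiratory chain and ATP synthase. Its RNAs come from mitochondrial DNA, while all of its proteins are encoded in the nucleus, made in the cytosol and imported. Some subunits descend from bacterial ribosomal proteins and others have no bacterial counterpart. The promoters of many nuclear genes for mitochondrial proteins are known to carry sites for ETS factors of the GABP type, for NRF1 and for YY1. Mitochondrial RNAs themselves were not analysed here.

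Promoter windows of 250 bases before to 50 bases after the annotated start were available for 67 of the 76 protein subunits (RefSeq, GRCh38.p14). The motif CCGGAAG, of the ETS and GABP type, was present on either strand in 28 of the 67 windows (41.8%), against 10.7% of all 27305 windows and 18.4% of the 9507 windows of tested genes that are no members. AAGATGG, the YY1 core, was in 23 windows (34.3%), against 6.06% of all and 7.30% of tested non-members. The NRF1 core GCATGCG was in 7 windows (10.4%), against 4.13% and 6.32%. The E-box CACGTG was in 6 windows (8.96%), against 7.43% and 9.97%, and TGATGCA, of the ATF4 and C/EBP type, was in 0 windows, against 2.69% and 1.34%. The closing AAG of CCGGAAG is also the opening of AAGATGG, so these motifs can share bases. A match describes the sequence only.

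The 250 bases before the start are shown for 6 genes: 4 called higher at 24 h that hold a motif there, MRPL9, called higher and holding none, and MRPL33, the member called lower in the combination at 24 h. They were chosen after their values were seen. Capitals mark the motif letters on either strand, 5′ to 3′ on the gene's own strand.
MRPL30 lies at chr2:99180934-99181183 (plus strand), with an ETS-type motif.
MRPL30: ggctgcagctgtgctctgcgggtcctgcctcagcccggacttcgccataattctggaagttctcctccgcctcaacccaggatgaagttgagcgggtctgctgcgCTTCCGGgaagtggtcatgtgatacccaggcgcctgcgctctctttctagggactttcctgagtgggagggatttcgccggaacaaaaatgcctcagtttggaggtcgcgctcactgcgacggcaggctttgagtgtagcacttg
MRPL32 lies at chr7:42932126-42932375 (plus strand), with a YY1 core and 2 NRF1 cores.
MRPL32: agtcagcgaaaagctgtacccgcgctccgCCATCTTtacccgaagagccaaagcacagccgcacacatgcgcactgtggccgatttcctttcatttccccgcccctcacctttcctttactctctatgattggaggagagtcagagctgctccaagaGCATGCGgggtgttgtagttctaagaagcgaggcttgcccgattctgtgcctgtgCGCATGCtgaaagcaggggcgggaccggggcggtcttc
MRPS12 lies at chr19:38930694-38930943 (plus strand), with a YY1 core shown and an ETS-type motif only after the start.
MRPS12: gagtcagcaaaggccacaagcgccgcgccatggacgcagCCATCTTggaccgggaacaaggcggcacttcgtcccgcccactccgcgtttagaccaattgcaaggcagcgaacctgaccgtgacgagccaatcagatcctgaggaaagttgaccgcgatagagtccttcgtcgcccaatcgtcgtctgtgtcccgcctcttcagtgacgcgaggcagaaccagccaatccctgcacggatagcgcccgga
MRPL45 lies at chr17:38296918-38297167 (plus strand), with an E-box shown and a YY1 core only after the start.
MRPL45: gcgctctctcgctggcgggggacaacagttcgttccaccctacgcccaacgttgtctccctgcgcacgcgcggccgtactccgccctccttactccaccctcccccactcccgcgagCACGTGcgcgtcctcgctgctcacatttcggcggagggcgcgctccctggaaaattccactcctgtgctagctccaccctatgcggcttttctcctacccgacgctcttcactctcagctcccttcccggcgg
MRPL9 lies at chr1:151763497-151763746 (minus strand), with none of the 5 motifs.
MRPL9: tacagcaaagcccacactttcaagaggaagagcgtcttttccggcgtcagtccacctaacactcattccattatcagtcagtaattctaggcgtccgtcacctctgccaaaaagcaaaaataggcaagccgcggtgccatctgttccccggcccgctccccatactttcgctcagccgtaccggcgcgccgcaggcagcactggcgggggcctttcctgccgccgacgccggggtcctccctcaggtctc
MRPL33 lies at chr2:27771469-27771718 (plus strand), with an ETS-type motif that starts 8 bases before the start.
MRPL33: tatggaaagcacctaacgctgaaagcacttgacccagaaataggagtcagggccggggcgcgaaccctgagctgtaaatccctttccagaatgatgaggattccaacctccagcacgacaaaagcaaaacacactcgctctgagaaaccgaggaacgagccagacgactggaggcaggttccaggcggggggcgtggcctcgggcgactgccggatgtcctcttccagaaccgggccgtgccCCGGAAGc

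After 24 h of MMS the protein subunits' summed level was higher, with and without sorafenib beforehand. The 76 protein subunits together took 6756 and 6324 CPM in the MMS libraries at 24 h, against 5029 and 5170 CPM in the DMSO libraries. In the combination libraries they took 6479 and 6247 CPM, against 4833 and 4891 CPM in the sorafenib libraries. All 4 libraries with MMS at 24 h lay above all 4 without it. At 8 h the sums were 5858 and 5062 CPM in the combination, 5195 and 4820 CPM in MMS, 5219 and 5045 CPM in sorafenib and 5215 and 4883 CPM in DMSO, and these groups overlapped. Proteins of the cytosolic ribosome summed to 23945 and 21555 CPM in MMS and 22739 and 21861 CPM in DMSO at 24 h, which overlap. They summed to 23108 and 21767 CPM in the combination, both above the 21083 and 20578 CPM in sorafenib.

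**Figure D1:**
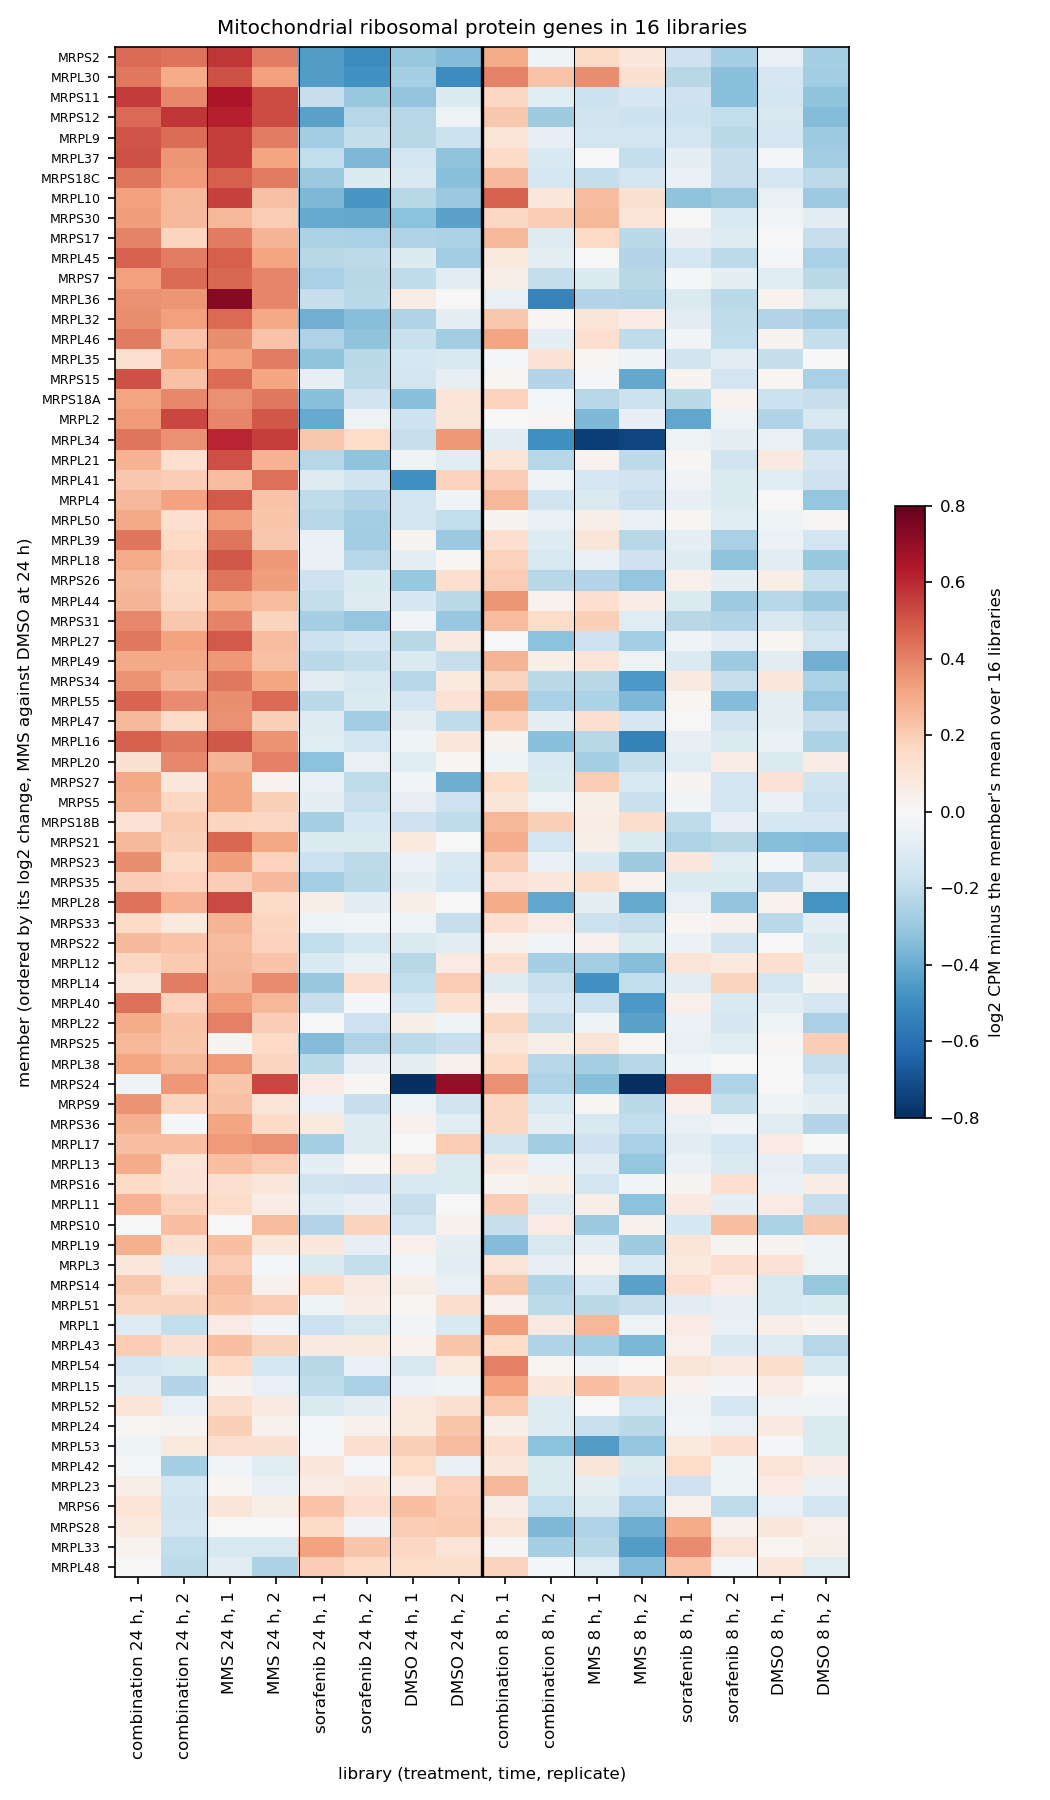
Level of each of the 76 protein subunits in each library, as log2 CPM minus that gene's mean over the 16 libraries, with genes down the page in order of their log2 change in MMS against DMSO at 24 h and libraries across it. Most rows are red in the 4 combination and MMS libraries at 24 h and blue in the sorafenib and DMSO libraries, with the opposite in the lowest rows, which include MRPL33 and MRPL48.

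In MMS against DMSO at 24 h, 34 of the 78 members were called higher and 0 lower by edgeR's quasi-likelihood test (Benjamini-Hochberg adjusted p under 0.05 over all genes tested). By the same adjusted p of edgeR, 15.2% of all 13948 genes were called higher and 16.3% lower. DESeq2 called 36 members higher and 0 lower, and 48 members had an unadjusted p under 0.05 in edgeR. The shares of all genes by these other measures are not given here, so these counts do not set the members apart. The protein subunits' median log2 change was 0.31, that of all genes 0.00, and that of non-members of similar level 0.04, of which 20.1% were called higher. The change was positive for 65 of the 76 protein subunits, and the called ones rose by 1.18-fold to 1.70-fold (median 1.35-fold). Both MMS libraries lay above both DMSO libraries for 61 members, against 36.3% of all genes, and below them for 7 members, against 28.0% of all genes. With any 1 library of these groups left out, fewer members were called higher, and the protein subunits' median log2 change was 0.28 to 0.41. The median log2 change was 0.39 within replicate 1 and 0.21 within replicate 2.

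The combination against sorafenib at 24 h gave similar counts from 4 other libraries. Of the 78 members, 40 were called higher and 1 lower, against 18% and 18.8% of all genes. The protein subunits' median log2 change was 0.35 (all genes 0.00, non-members of similar level 0.04), and 66 of 76 were positive. The 39 protein subunits called higher rose by 1.195-fold to 1.834-fold (median 1.42-fold). Both combination libraries lay above both sorafenib libraries for 62 members, against 39.0% of all genes, and below them for 5, against 31.6%. Leaving out any 1 library of these groups lowered the number called higher, with the protein subunits' median log2 change at 0.31 to 0.41. Within replicate 1 and replicate 2 the median log2 change was 0.39 and 0.31.

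The 2 comparisons share no library. They called 32 members higher in common, which is 94.1% of the 34 called after MMS alone and 80.0% of the 40 called after MMS on sorafenib. The sign was the same for 73 of the 76 protein subunits. The same shares over all genes are not given here, so these counts do not set the members apart. Across these 76 genes the log2 changes had a Pearson correlation of 0.94, against 0.88 over all genes tested, as a description, since genes are not independent replicates and both comparisons come from the same 2 experiments.

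**Figure D2:**
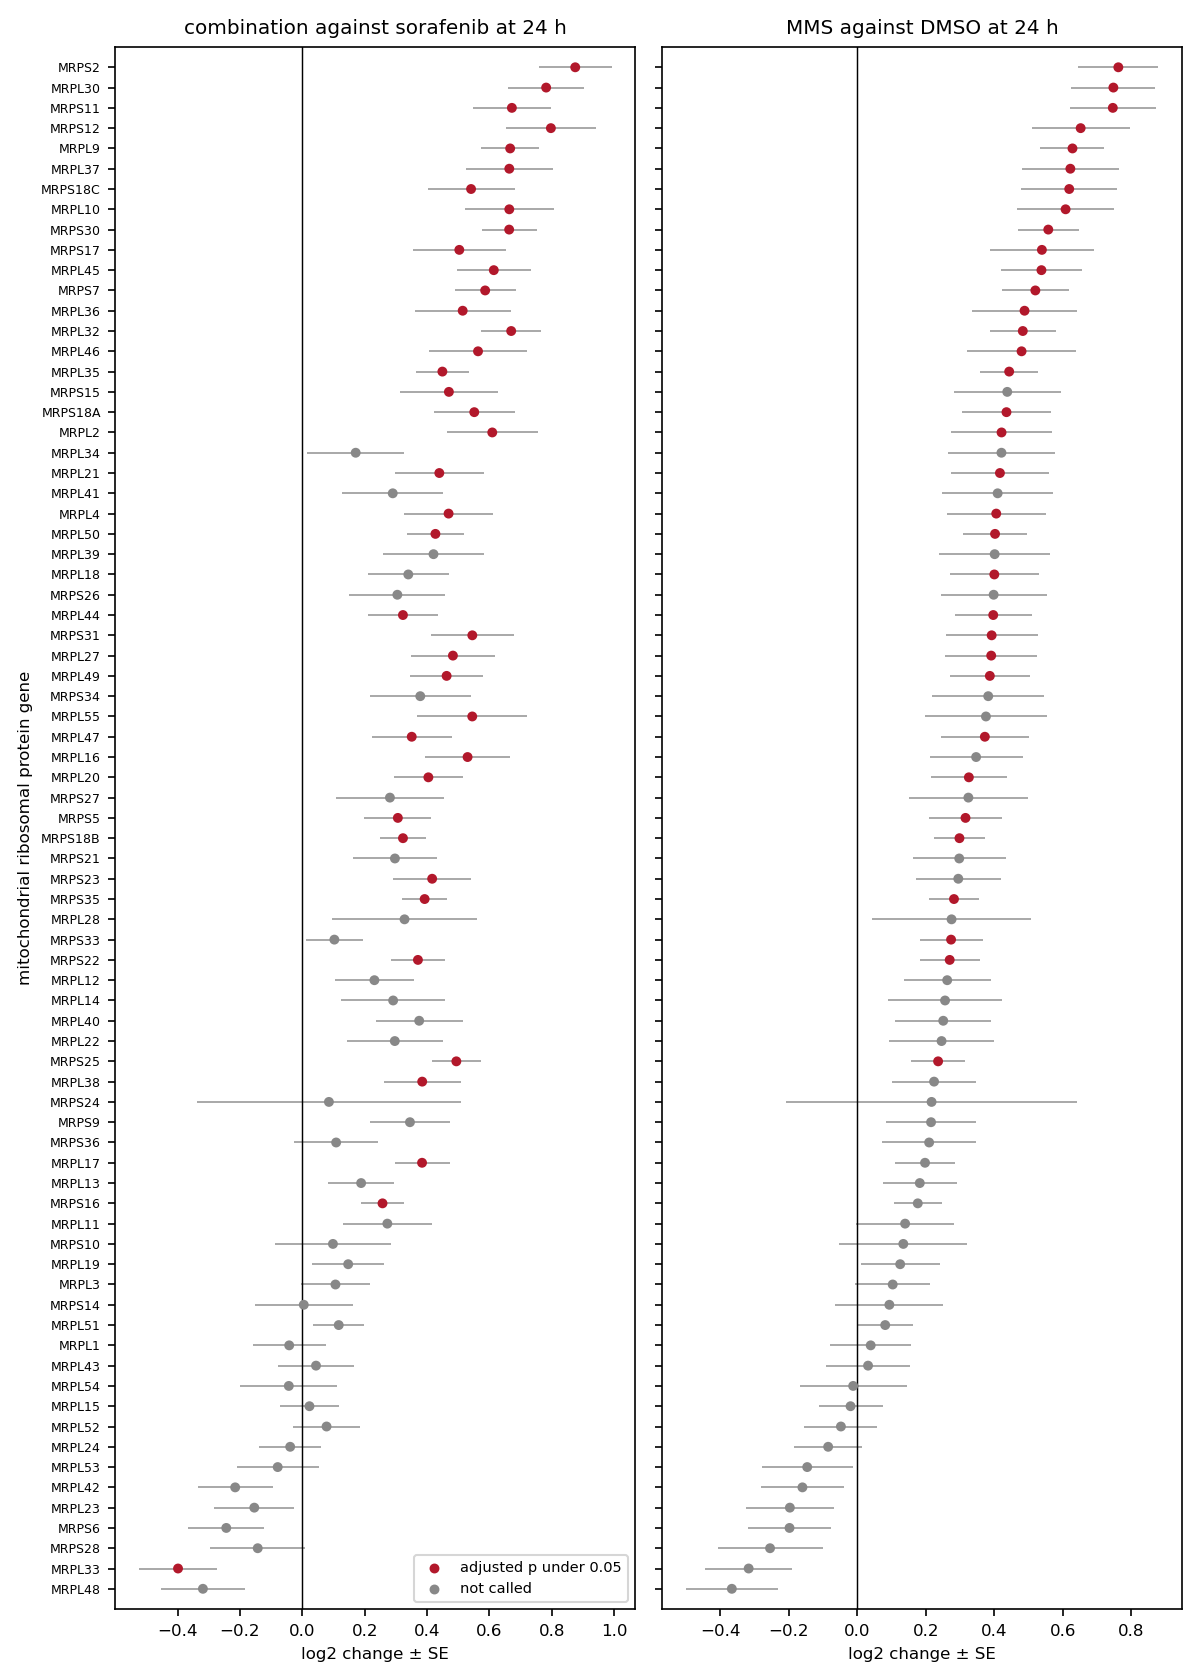
Log2 change ± SE of each protein subunit in the combination against sorafenib (left) and in MMS against DMSO (right) at 24 h, with genes in order of the right panel and red for an adjusted p under 0.05. The genes lie in nearly the same order in both panels, MRPS2 being highest in both, and MRPL33 is the red point below 0 at left.

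MRPS30 carries a small-subunit name, although structures of the human mitoribosome place it in the large subunit. It had 75.6 and 71.9 CPM in the combination, 72.0 and 68.9 CPM in MMS, 45.3 and 45.0 CPM in sorafenib and 47.7 and 44.6 CPM in DMSO at 24 h. The libraries with MMS did not overlap those without it. MRPS30 rose by 0.66 on the log2 scale in the combination against sorafenib (SE 0.09, edgeR adjusted p = 0.00018) and by 0.56 in MMS against DMSO (SE 0.09, adjusted p = 0.00072). At 8 h it had 67.2 and 68.7 CPM in the combination, 72.0 and 64.6 CPM in MMS, 59.8 and 55.2 CPM in sorafenib and 59.0 and 56.5 CPM in DMSO. The DMSO level at 24 h was thus below that at 8 h, with a log2 change of -0.35 that was not called (adjusted p = 0.083, and 0.0066 with the replicate block).

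MRPS2, a small-subunit protein with a bacterial counterpart, had the largest change of the module among protein subunits in both comparisons. At 24 h it had 150.9 and 149.2 CPM in the combination, 163.8 and 146.2 CPM in MMS, 81.0 and 77.7 CPM in sorafenib and 89.5 and 86.8 CPM in DMSO. It rose 1.83-fold in the combination against sorafenib (adjusted p = 0.00019) and 1.70-fold in MMS against DMSO (adjusted p = 0.00058). At 8 h its values were 135.3 and 107.4 CPM in the combination, 122.4 and 116.9 CPM in MMS, 98.5 and 91.7 CPM in sorafenib and 106.0 and 91.6 CPM in DMSO, and it was not called there (adjusted p = 0.063 and 0.066).

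MRPL9, a large-subunit protein with a bacterial counterpart, had the smallest p of the module in MMS against DMSO at 24 h. Its values at 24 h were 110.3 and 106.2 CPM in the combination, 114.1 and 103.5 CPM in MMS, 64.3 and 68.1 CPM in sorafenib and 66.7 and 69.1 CPM in DMSO. It rose 1.59-fold in the combination against sorafenib (adjusted p = 0.00024) and 1.55-fold in MMS against DMSO (adjusted p = 0.00048). At 8 h the MMS libraries had 70.3 and 69.9 CPM and the DMSO libraries 70.9 and 63.6 CPM, which overlap. The combination libraries at 8 h had 83.56 and 74.43 CPM, both above the 69.96 and 67.09 CPM in sorafenib. MRPL9 was not called in either comparison at 8 h.

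MRPL32, a large-subunit protein with a bacterial counterpart that is processed by a mitochondrial protease in mouse and yeast, was already called higher in MMS against DMSO at 8 h. At 24 h it had 97.3 and 94.5 CPM in the combination, 102.8 and 92.6 CPM in MMS, 57.7 and 59.4 CPM in sorafenib and 63.6 and 71.3 CPM in DMSO. It rose 1.59-fold in the combination against sorafenib and 1.40-fold in MMS against DMSO (adjusted p = 0.00029 and 0.0028). At 8 h it had 80.6 and 78.8 CPM in MMS, against 63.8 and 62.1 CPM in DMSO (adjusted p = 0.012). That call was lost when any 1 of these 4 libraries was left out. The combination libraries at 8 h had 87.38 and 75.66 CPM, against 70.55 and 65.34 CPM in sorafenib, and MRPL32 was not called in that comparison.

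**Figure D3:**
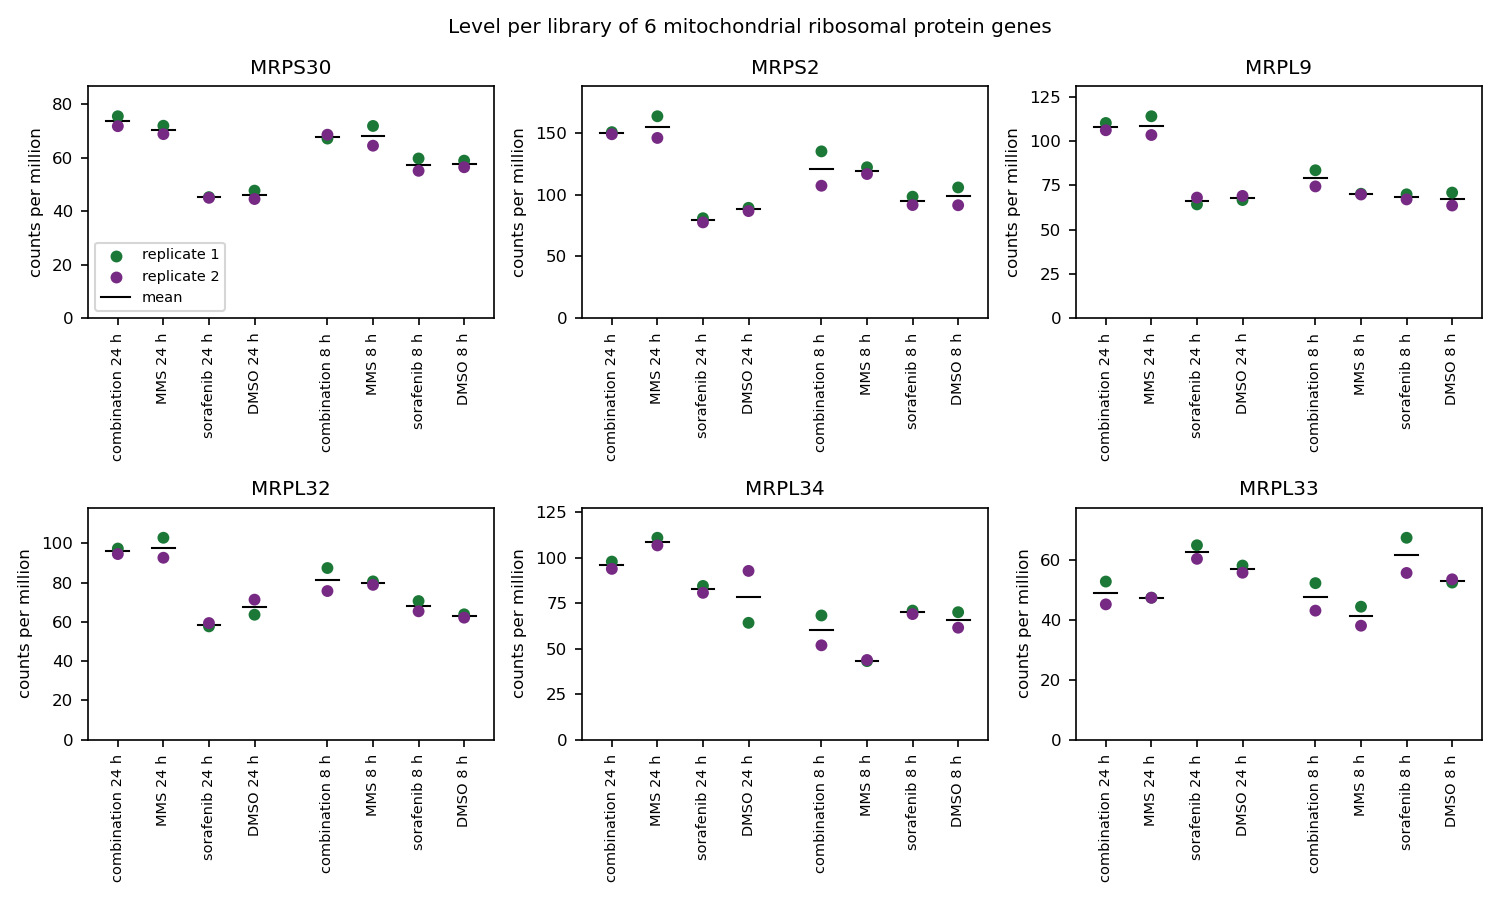
Level (CPM) of 6 members in each of the 16 libraries, with the groups at 24 h left of those at 8 h, green for replicate 1, purple for replicate 2 and a bar for the mean of 2. For MRPS30, MRPS2, MRPL9 and MRPL32 the 4 MMS-containing libraries at 24 h sit above the other 4 at that time. MRPL34 is lowest in MMS at 8 h and highest in MMS at 24 h, and MRPL33 is lower in every MMS-containing group than in its partner without MMS.

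Among the other members with the smallest p at 24 h were small-subunit proteins that have bacterial counterparts: MRPS7, MRPS11 and MRPS12, of which MRPS12 sits at the decoding centre. MRPS12 had 97.2 and 105.5 CPM in the combination, 109.1 and 102.0 CPM in MMS, 52.7 and 60.6 CPM in sorafenib and 60.5 and 69.1 CPM in DMSO. Its log2 changes were 0.80 in the combination against sorafenib and 0.65 in MMS against DMSO (adjusted p = 0.0012 and 0.0049). MRPS11 rose by 0.67 and 0.75 on the log2 scale in the same comparisons, and MRPS7 by 0.59 and 0.52. Of large-subunit proteins, MRPL30 rose by 0.78 and 0.75, MRPL35 by 0.45 and 0.44, and MRPL45, which tethers the ribosome to the inner membrane at the tunnel exit, by 0.61 and 0.54. MRPS25 and MRPS35, without bacterial counterparts, rose by 0.49 and 0.39 in the combination against sorafenib and by 0.24 and 0.28 in MMS against DMSO. MRPL9, MRPL30, MRPL32, MRPL35, MRPS2, MRPS7, MRPS11, MRPS12 and MRPS30 were called at 24 h in both comparisons under every alternative tried, each left-out library included. Of the 34 and 41 members called in the MMS and the combination comparison, 9 and 20 were called under every alternative.

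A minority did not follow. MRPL33, a small large-subunit protein with a bacterial counterpart, had 52.9 and 45.3 CPM in the combination and 65.1 and 60.5 CPM in sorafenib at 24 h. It had 47.5 and 47.5 CPM in MMS and 58.3 and 55.9 CPM in DMSO at that time. It fell by 0.40 on the log2 scale in the combination against sorafenib (SE 0.13, adjusted p = 0.026), and its log2 change of -0.32 in MMS against DMSO was not called (adjusted p = 0.075). The first call was lost without combination replicate 2 and without either sorafenib library, with an adjusted p of up to 0.25. MRPL48, a protein of the central protuberance, singled out after its values were seen, had 30.4 and 27.2 CPM in MMS and 35.8 and 35.8 CPM in DMSO (log2 change -0.37, adjusted p = 0.057). With the replicate block, 50 members were called higher in MMS against DMSO at 24 h, against 23.0% of all genes, and 53 in the combination against sorafenib, against 26.6%. With it, MRPL33, MRPL48 and MRPS6 were called lower in MMS against DMSO, where the block called 25.2% of all genes lower. In the combination against sorafenib the block called MRPL33, MRPL48, MRPS6 and MRPL42 lower, against 27.8% of all genes. MRPS6 shares 176 exon bases on the same strand with SLC5A3, which fell by 0.98 on the log2 scale in MMS against DMSO at 24 h.

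Members of both subunits were called higher. In MMS against DMSO at 24 h, 19 of 47 subunits with an MRPL name and 15 of 29 with an MRPS name were called higher, with median log2 changes of 0.33 and 0.30. In the combination against sorafenib the counts were 22 and 17, with medians of 0.34 and 0.37. Of 48 subunits with bacterial counterparts, 22 were called higher in MMS, and of 28 without, 12 were, with medians of 0.32 and 0.29. At the exit tunnel 3 of 8 were called higher in MMS, at the central protuberance 3 of 7, and in the stalk, which recruits translation factors, 1 of 5 (MRPL10), a share close to the 15.2% of all genes and the 20.1% of non-members of similar level. Of 7 subunits listed under other names, 2 were called higher in MMS and 3 in the combination. DAP3, a GTP-binding small-subunit protein, rose by 0.32 on the log2 scale in MMS and by 0.40 in the combination, and GADD45GIP1, a large-subunit protein, by 0.42 and 0.49. No difference between these classes was tested.

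Other genes for mitochondrial gene expression are given from lists chosen with earlier results of these data known, and their counts stand beside the 15.2% of all genes called higher in MMS and the 18% in the combination. Of 27 tested mitoribosome assembly genes, 16 were called higher and 0 lower in MMS against DMSO at 24 h (median log2 change 0.37), and 18 and 0 in the combination against sorafenib (median 0.50). RNMTL1, which methylates the large mitochondrial rRNA, rose by 0.89 and 1.19 on the log2 scale. GTPBP10, a GTPase of large-subunit assembly, rose by 0.59 and 0.65, and ERAL1, a chaperone of the small-subunit rRNA, by 0.64 and 0.73. Of 12 genes for mitochondrial DNA and transcription, 9 were called higher in MMS and 10 in the combination, and 0 lower, with medians of 0.64 and 0.61. SUPV3L1, a mitochondrial RNA helicase, rose by 0.76 and 0.90, and POLG, the mitochondrial DNA polymerase, by 0.61 and 0.64. Of 18 mitochondrial translation factors, 4 were called higher in MMS and 7 in the combination, TACO1 by 0.57 and 0.60 and GUF1 by 0.65 and 0.63. The translation factors' share in MMS is near that of all genes and of non-members of similar level (20.1%). Of 16 mitochondrial chaperones and proteases, 8 and 11 were called higher. CLPX, an unfoldase, rose by 0.48 and 0.46, and GRPEL1, a nucleotide exchange factor of the import motor, by 0.52 and 0.81.

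Few of the cytosolic ribosome's own proteins were called. Of 82 tested, 3 were called higher and 1 lower in MMS against DMSO at 24 h (median log2 change 0.02, 44 positive), where 15.2% of all genes were called higher. In the combination against sorafenib 9 were called higher and 3 lower (median 0.08, 61 positive), where 18% of all genes were called higher. Genes for making cytosolic ribosomes in the nucleolus were called higher in 21 of 30 cases in MMS (median 0.44) and in 24 of 30 in the combination (median 0.61). NOP2, an rRNA methyltransferase, rose by 0.72 and 1.06, and NOB1, an endonuclease of small-subunit rRNA, by 0.67 and 0.78. Of 12 known regulators of nuclear genes for mitochondria, 3 were called higher and 1 lower in MMS (median 0.12), and 4 higher and 2 lower in the combination (median -0.04, 6 positive). MYC rose by 0.37 and 0.44, ATF5 by 0.54 and 0.65 and PPRC1 by 0.36 and 0.57. PPARGC1A, a coactivator, fell by 0.80 and 1.44 on the log2 scale. NRF1 fell by 0.33 in the combination (adjusted p = 0.043) and had -0.09 in MMS (adjusted p = 0.62). GABPA, of the ETS family, had log2 changes of -0.42 and -0.35 that were not called (adjusted p = 0.11 and 0.17), and YY1 had 0.13 and 0.03 (adjusted p = 0.27 and 0.82). Of the 30 called members with a promoter window, 10 held the ETS-type motif and 13 the YY1 core. Of the 37 not called, 18 and 10 did. The E-box was in 5 called members and 1 not called, counts on which no test was made.

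**Figure D4:**
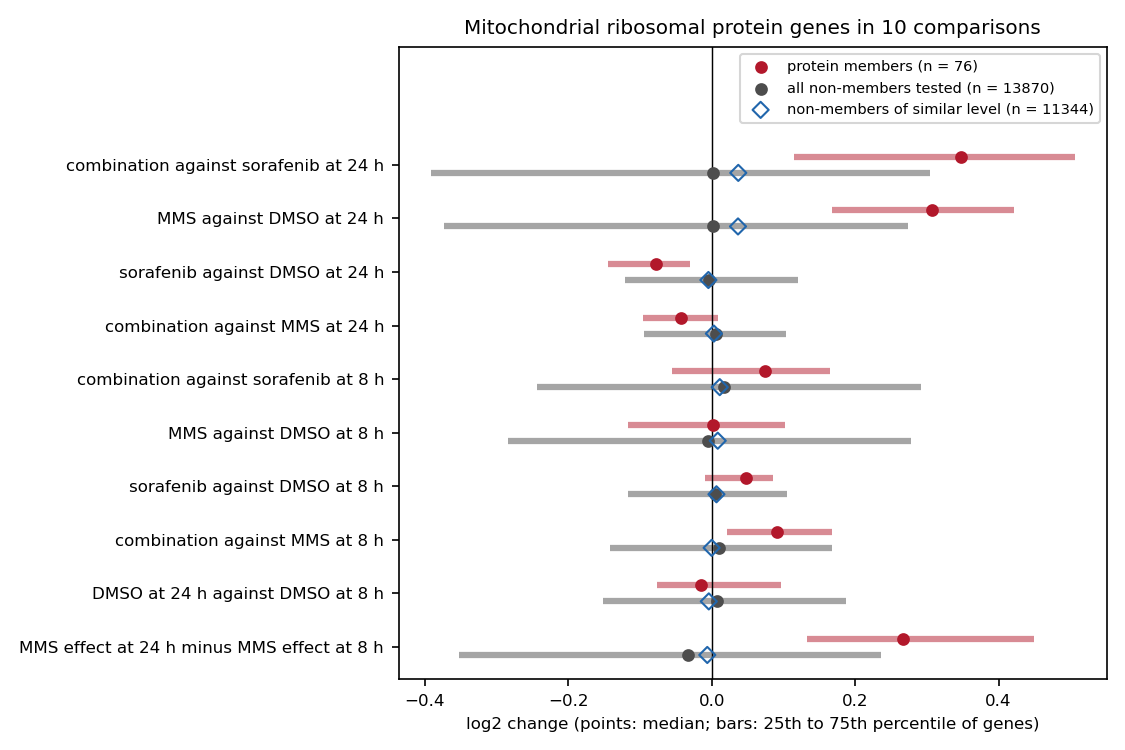
Median log2 change (points) with the 25th to 75th percentile over genes (bars) for the 76 protein subunits in red and all non-members tested in grey, and the median of non-members of similar level as an open diamond, in 10 comparisons. The red points lie at 0.35 and 0.31 in the MMS comparisons at 24 h and at 0.27 for the difference between the 24 h and 8 h effects, and within 0.10 of 0 elsewhere.

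At 8 h few members were called. In MMS against DMSO 7 members were called higher and 1 lower, against 14.5% and 12.0% of all genes. The protein subunits' median log2 change was 0.00, and its sign differed between scalings. The members called higher were MRPL30, MRPL32, MRPL44, MRPS18B, MRPS30, MRPS35 and the pseudogene MRPL45P2. With the replicate block 13 were called higher and 4 lower, against 22.4% and 20.9% of all genes. In the combination against sorafenib 5 were called higher (MRPL10, MRPL30, MRPL44, MRPS18B and MRPS31) and 1 lower, against 13.0% and 11.6% of all genes, and with the block 13 and 3, against 20.6% and 19.1%. MRPL30, MRPL44 and MRPS18B were called in both comparisons. No 8 h call of either comparison held under every alternative tried. In MMS against DMSO, fewer members were called higher with any 1 library left out, and the protein subunits' median was -0.08 to 0.06. In the combination against sorafenib, fewer were called higher except without combination replicate 2, where more were. The median there was -0.08 to 0.17 with 1 library left out.

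MRPL30, which has a bacterial counterpart, had the smallest p of the module at 8 h in both comparisons. It had 144.4 and 128.4 CPM in the combination, 141.7 and 119.0 CPM in MMS, 94.0 and 86.9 CPM in sorafenib and 99.6 and 90.4 CPM in DMSO at 8 h. The libraries with MMS lay above all those without. It rose 1.48-fold in the combination against sorafenib (adjusted p = 0.0052) and 1.41-fold in MMS against DMSO (adjusted p = 0.010), and the first call was lost without combination replicate 1 or sorafenib replicate 2 and the other without DMSO replicate 2 or MMS replicate 1. MRPL33 was the member called lower in the combination at 8 h, with 52.4 and 43.2 CPM, against 67.6 and 55.8 CPM in sorafenib (log2 change -0.40, adjusted p = 0.038, and up to 0.31 with a library left out).

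MRPL34, a small large-subunit protein with a bacterial counterpart, changed most between the times. At 24 h it had 97.8 and 93.8 CPM in the combination, 110.9 and 106.7 CPM in MMS, 84.4 and 80.6 CPM in sorafenib and 64.2 and 92.7 CPM in DMSO. At 8 h it had 68.2 and 51.8 CPM in the combination, 43.1 and 43.7 CPM in MMS, 70.9 and 69.0 CPM in sorafenib and 70.0 and 61.5 CPM in DMSO. It fell by 0.56 on the log2 scale in MMS against DMSO at 8 h (SE 0.16, adjusted p = 0.020), and its change of 0.42 at 24 h was not called. The difference of the 24 h and 8 h effects was 0.98 (SE 0.22, adjusted p = 0.018). Without DMSO 8 h replicate 1, MMS 8 h replicate 1 or MMS 24 h replicate 1 that call was lost, with an adjusted p of up to 0.062. The annotated exons of MRPL34 share 223 bases with ABHD8 on the other strand, which rose by 0.66 in MMS against DMSO at 24 h. Reads of the shared stretch cannot be told apart where counting did not use the strand, which the sources used here do not give.

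The difference between the MMS effect at 24 h and at 8 h was itself called for 4 members, all with a larger effect at 24 h: MRPL34, MRPL9 (0.53), MRPS7 (0.49) and MRPS11 (0.63). Over all genes 3.53% were called in that direction and 5.60% in the other. The protein subunits' median was 0.27, against -0.03 for all genes, and 66 of 76 were positive. With the replicate block 27 members were called in that direction, against 11.0% of all genes. Fewer members or none were called in that direction without DMSO 8 h replicate 1, DMSO 24 h replicate 1, MMS 24 h replicate 1 or either MMS 8 h library. With any 1 library left out the protein subunits' median was 0.23 to 0.41. In DMSO at 24 h against DMSO at 8 h, 0 members were called, against 0.366% of all genes higher and 0.294% lower. At an unadjusted p under 0.05 there were 4, DESeq2 called 2 lower, and the block called 2 higher and 2 lower, against 7.21% and 6.42% of all genes.

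Sorafenib by itself moved no member past the threshold. In sorafenib against DMSO at 24 h 0 members were called by edgeR (0.244% of all genes higher, 0.574% lower) and 0 by DESeq2, and 2 had an unadjusted p under 0.05. The protein subunits' median log2 change was -0.08, 65 of 76 were below 0, and 75 of 76 changed by less than 1.2-fold, with a median SE of 0.13. Both sorafenib libraries lay below both DMSO libraries for 26 members, against 16.15% of all genes, and above them for 3, against 18.55%. MRPL17, an exit-tunnel protein, had 101.9 and 114.1 CPM in sorafenib and 122.2 and 141.5 CPM in DMSO (log2 change -0.30, adjusted p = 0.21). With the replicate block MRPL17 was called lower (adjusted p = 0.032), against 3.81% of all genes. At 8 h 0 members were called in sorafenib against DMSO by edgeR, DESeq2 or the block (0.115% of all genes higher, 0.280% lower), and 0 had an unadjusted p under 0.05. The median there was 0.05, and MRPL17 had 115.9 and 111.4 CPM in sorafenib and 128.2 and 122.6 CPM in DMSO.

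No member passed the threshold between cells given MMS with and without sorafenib beforehand. In the combination against MMS at 24 h 0 members were called (0.0143% of all genes higher, 0.108% lower), 0 had an unadjusted p under 0.05, and the log2 changes of the protein subunits lay between -0.22 and 0.15 (median -0.04). At 8 h 0 were called (0.222% higher, 0.401% lower) and 2 had an unadjusted p under 0.05. The subunits' median was 0.09 and 62 of 76 were positive, against a median of 0.00 for non-members of similar level. Both combination libraries lay above both MMS libraries for 24 members, against 25.8% of all genes, and below them for 0, against 14.6%. The members with an unadjusted p under 0.05 were MRPL34 and MRPS33, a small-subunit protein. MRPS33 had 31.5 and 30.1 CPM in the combination and 25.6 and 25.2 CPM in MMS at 8 h (log2 change 0.23, adjusted p = 0.29). The interaction of sorafenib and MMS was called for 0 members at 24 h and at 8 h (0% of all genes in each direction), with 1 member (MRPS25) and 0 members at an unadjusted p under 0.05. DESeq2 also called 0 members in the combination against MMS and for the interaction, at both times. A p that misses the threshold does not show that the effects are alike. For the subunits the SE of an interaction had a median of 0.18 on the log2 scale.

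The members have short genes, with a median genomic span of 12465 bases in GENCODE v29, against 33085 for tested non-members that have a match there. Non-members of different span did not change alike: in MMS against DMSO at 24 h the median log2 change was 0.07 and 0.11 in the bins of shortest and next shortest span (5 bins of equal numbers of non-members), and -0.26 in the longest. In the shortest bin the 33 members had a median of 0.38, and 15 (45.5%) were called higher, against 16.9% of non-members. In the next bin the 23 members had a median of 0.40 and 13 (56.5%) were called, against 21.3%. The other bins hold 9, 7 and 4 members, with medians of 0.25, 0.04 and 0.01, against 0.06, -0.02 and -0.26 for non-members. In these bins 44.44%, 14.29% and 25% of members were called higher, against 20.05%, 13.06% and 4.693% of non-members. In the combination against sorafenib the members' medians in the 2 shortest bins were 0.38 and 0.42, against 0.11 and 0.13 for non-members. In the bin of next to longest span the 7 members had a median of -0.04, as did the non-members, and 1 (14.3%) was called higher, against 15.4%. The part of gene length in these changes was not tested.

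**Figure D5:**
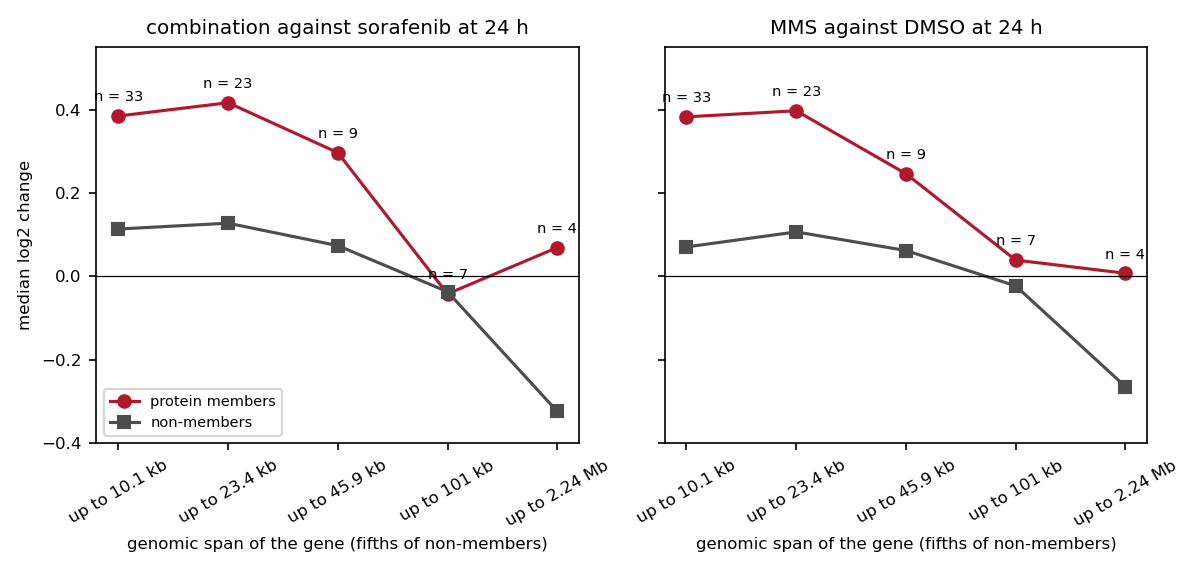
Median log2 change of protein subunits (red, number of members given) and of non-members (grey) by 5 bins of genomic span, in the combination against sorafenib (left) and in MMS against DMSO (right) at 24 h. In the 2 bins of shortest span the red points lie at 0.38 to 0.42 and the grey points at 0.07 to 0.13.

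Levels differed widely within the module although the proteins share 1 complex. Per kilobase of annotated transcript, mean CPM over the 16 libraries was highest for MRPL14 (153), MRPL42 (130), MRPL19 (119), MRPL37 (116) and MRPL4 (114), with a median of 52.5 over the 76 subunits. It was lowest for MRPS24 (3.96), MRPS11 (11.4), MRPS18C (11.6), MRPS14 (11.8) and MRPS25 (11.8). The order differs between groups. In MMS at 24 h MRPL37 (154.6) and MRPL4 (145.3) stood above MRPL19 (132.9), and in DMSO at 24 h MRPL42 (134.5) and MRPL19 (117.5) stood above MRPL4 (105.9). MRPS24 was lowest in every group. MRPS24 had 1.45 and 4.37 CPM in DMSO at 24 h, the widest gap of a pair. Its exons share 606 bases on the same strand with the readthrough row URGCP-MRPS24, and its annotated transcript has 707 bases. That row had 0 counts in all 16 libraries, which does not show that MRPS24 lost no reads. Whether counting left reads of the shared bases out of both rows was not tested, so the low rank of MRPS24 is uncertain. Lengths come from GENCODE v29 and not from the annotation used for counting, so these levels are approximate. MRPS36, with 22.9 CPM on average, is now assigned to a dehydrogenase complex and not to the ribosome, and it was not called in any comparison. It stays in all counts, sums and medians of the 76 protein subunits, and among the 28 without bacterial counterparts.

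The pseudogenes were near the floor: MRPL45P2 averaged 1.119 CPM and MRPL42P5 0.754 CPM. MRPL45P2 had 1.82 and 1.35 CPM in MMS and 0.537 and 0.790 CPM in DMSO at 8 h (2.42-fold, adjusted p = 0.018), and this call was lost with DESeq2 and without DMSO replicate 1 or MMS replicate 1. It was also called in the combination against sorafenib at 24 h, a call lost with DESeq2, with no filter, and without combination replicate 2 or sorafenib replicate 1. Its reads could come from MRPL45, which it resembles, and its values are uncertain. In all, 19 members share exon bases with another deposited row, 15 of them with 1 on the opposite strand, such as MRPS12 with SARS2 (349 bases) and MRPL9 with OAZ3 (242 bases). SARS2 had a log2 change of -0.22 in MMS against DMSO at 24 h (adjusted p = 0.28). OAZ3 averaged 0.809 CPM and had a log2 change of 1.02 (adjusted p = 0.052). C9orf116, which shares 68 bases with MRPS2, averaged 1.88 CPM. The part of such rows in the members' values was not tested.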

How the data were processed

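Total RNA of 16 MDA-MB231 libraries was sequenced, and the authors deposited 1 table of raw read counts per gene for each library. Per the submitters' processing notes, the tools were CASAVA 1.8.2, TopHat2 2.0.8b and HTSeq, with hg19; the counting mode, strand setting and annotation are not given in the sources used here. The 5 counter rows of each table (37.6 to 39.9% of its total; reads with several alignments 29.5 to 31.5%) were left out of totals and tests. CPM values are plain shares of gene reads, while log2 changes come from edgeR 4.0.16 (filterByExpr, TMM factors 0.954 to 1.06, quasi-likelihood test, all 16 libraries in 1 fit with 8 groups, Benjamini-Hochberg over 13948 genes, called at an adjusted p under 0.05) in R 4.3.3. All p-values in the text are from this model unless another is named. The fit was tested first on simulated counts for MMS against DMSO at 24 h, with 50 genes changed at each fold. It recovered 0 of 50 at 1.25-fold, 13 at 1.5-fold, 36 at 2-fold and 48 at 4-fold. Of the 101 genes called there, 4 were false. Small changes were thus mostly missed in that simulation, and its shares need not hold where many genes change. DESeq2 1.42.0, other scalings and filters, each library left out and a replicate block were alternatives.

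Replicate numbers follow the start of the sample titles. Deviations from group means correlated between same-numbered libraries in all 28 pairs of groups (r 0.489 to 0.707), so the numbers were taken to pair the libraries in the block fit. The main fit has no block, so its p-values ignore this pairing. The common coefficient of variation between libraries in edgeR was 0.136 in the main fit and 0.0632 with the block. Non-members of similar level are 11344 genes compared in 5 level bins. Lengths, spans and overlaps come from GENCODE v29 (GRCh38), and promoters from RefSeq GRCh38.p14. Members named are up to 10 per comparison and direction with the smallest p, the 5 highest and 5 lowest per kilobase, and those called against the rest. The members and lists were chosen with earlier results of these data known.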

Additional observations from a re-analysis of the deposited data

How the results depend on the processing

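The higher counts at 24 h stayed within 1.5 times of their values under other scalings and filters and under the replicate block, but not when single libraries were left out; the causes of the changes below were not tested beyond the fewer libraries of the latter. With the replicate block, members called lower were 3 in MMS against DMSO and 4 in the combination against sorafenib at 24 h, and 1 in sorafenib against DMSO at 24 h. At 8 h the block called 13 higher and 4 lower in MMS, and 13 higher and 3 lower in the combination against sorafenib. For DMSO at 24 h against 8 h it called 2 higher and 2 lower, and for the MMS effect at 24 h minus that at 8 h 27 higher and 1 lower. DESeq2 called 2 lower in the combination against sorafenib at 8 h, 2 lower in DMSO over time and 7 higher for the difference of MMS effects. Library totals as the only scaling gave 2 lower in MMS at 8 h, 8 higher in the combination at 8 h, and 13 higher with a median of 0.3531 for the difference of effects. No filter gave 3 higher in the combination at 8 h. The shares of all genes under DESeq2, library totals and no filter are not given here. These counts thus show only how calls of members depend on the setting. The median log2 change in MMS at 8 h was -0.009822 with DESeq2, -0.009463 with RLE factors, -0.03648 with library totals, -0.02247 with genes under a mean count of 50 left out, and 0.007522 with no filter.

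With 1 library left out, members called higher ranged over 11 to 30 (MMS) and 23 to 31 (combination against sorafenib) at 24 h, 1 to 3 and 1 to 7 at 8 h, and 0 to 6 for the difference of effects. Members called lower ranged over 0 to 1 in MMS at 8 h, 0 to 1 in the combination at 24 h and 0 to 3 at 8 h. Median log2 changes at 24 h ranged over 0.2752 to 0.4081 (MMS), 0.3072 to 0.41 (combination against sorafenib), -0.1107 to -0.05887 (sorafenib), -0.1179 to 0.0263 (combination against MMS) and -0.05344 to 0.126 (interaction). At 8 h they ranged over -0.0849 to 0.05722 (MMS), -0.08039 to 0.1737 (combination against sorafenib), -0.04425 to 0.128 (sorafenib), -0.0291 to 0.199 (combination against MMS) and -0.06983 to 0.1672 (interaction). For DMSO over time they ranged over -0.08628 to 0.07408, and for the difference of effects over 0.23 to 0.4099. The lone library of a reduced group is assumed to vary like the other groups. The shares of all genes called in these reduced fits are not given here, so their counts show only how calls of members depend on single libraries. Of 93 calls of a member in a comparison, 89 held with DESeq2, 84 with no filter and 93 with the block. With 2 libraries a group, a member that was not called may still differ.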
